A study of Mus musculus with 18 samples.

Results

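The genes described here form the brake of the early cell cycle and its release: the 7 genes of cyclin-dependent kinase (CDK) inhibitors (Cdkn1a, Cdkn1b, Cdkn1c, Cdkn2a, Cdkn2b, Cdkn2c and Cdkn2d) and the 3 D cyclin genes (Ccnd1, Ccnd2 and Ccnd3). They were picked out of the count table by symbol, and all 10 of 10 were found among its 24527 entries. The study measured RNA in 3 mouse pancreatic ductal adenocarcinoma lines, PD454, PD7591 and PD883, kept for 48 h with the solvent DMSO, with 2.5 µM of the calcium ionophore ionomycin, or with 10 ng/ml of the growth factor TGFb. There were 18 libraries, 2 for each of the 9 combinations of a line and a treatment. The series title asks about calcium signalling and a partial epithelial to mesenchymal transition, and the comparison of ionomycin with DMSO and with TGFb bears on it. All groups shared a medium with insulin, transferrin, selenium, bovine pituitary extract, triiodothyronine, dexamethasone, cholera toxin, nicotinamide and a serum substitute. The strain background is labelled as mixed. The labels give neither the driver alleles of the tumours nor whether a line is 1 clone. The labels do not say whether the 2 libraries of a group came from separate cultures, so p-values measure the spread between these libraries, which may be technical.

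As background, D cyclins bind CDK4 and CDK6, and the active complexes phosphorylate the retinoblastoma protein, which frees E2F factors to switch on genes of DNA synthesis. The INK4 inhibitors (p16 from Cdkn2a, p15 from Cdkn2b, p18 from Cdkn2c and p19Ink4d from Cdkn2d) bind CDK4 and CDK6, whereas the CIP/KIP inhibitors (p21 from Cdkn1a, p27 from Cdkn1b and p57 from Cdkn1c) bind a wider range of cyclin and CDK complexes. Cdkn2a also encodes p19Arf, which restrains the p53 regulator Mdm2, and TGFb is known in epithelial cells for arresting growth through Cdkn2b and Cdkn1a. The Cdkn2a locus is often deleted or silenced in pancreatic ductal adenocarcinoma.

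Cdkn2b and Cdkn2a lie next to each other on mouse chromosome 4, both on the minus strand, at chr4:89306299-89311039 and chr4:89274471-89294653 in the GRCm38 build (mm10, GENCODE M21). The 250 bases before their RefSeq starts (GRCm38.p6, minus strand) are shown because this pair rose together with TGFb and fell together with ionomycin. Cdkn2a has a pair of starts, an upstream one of the p19Arf transcript and a downstream one of the p16 transcript, and the count table holds 1 value for both, so the 2 products could not be separated. Capitals mark matches on either strand to GGGCGG (an Sp1 box), to TGACGTCA (the palindromic cAMP response element), to TGACTCA (an AP-1 site) or to the E2F-type motifs TTTGGCGC and TTTCCCGC.
Cdkn2b, chr4:89311033-89311282: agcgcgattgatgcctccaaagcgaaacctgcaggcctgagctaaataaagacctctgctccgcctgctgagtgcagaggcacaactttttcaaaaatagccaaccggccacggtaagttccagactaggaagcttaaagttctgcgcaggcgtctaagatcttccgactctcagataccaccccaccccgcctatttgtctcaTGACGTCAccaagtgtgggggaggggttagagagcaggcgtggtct
Cdkn2a, upstream start, chr4:89294620-89294869: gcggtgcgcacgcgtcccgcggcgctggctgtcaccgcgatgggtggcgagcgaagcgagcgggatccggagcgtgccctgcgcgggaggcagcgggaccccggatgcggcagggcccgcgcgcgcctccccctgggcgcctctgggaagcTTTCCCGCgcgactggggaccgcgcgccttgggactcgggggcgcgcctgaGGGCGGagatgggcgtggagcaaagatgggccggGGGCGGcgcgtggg
Cdkn2a, downstream start, chr4:89282193-89282442: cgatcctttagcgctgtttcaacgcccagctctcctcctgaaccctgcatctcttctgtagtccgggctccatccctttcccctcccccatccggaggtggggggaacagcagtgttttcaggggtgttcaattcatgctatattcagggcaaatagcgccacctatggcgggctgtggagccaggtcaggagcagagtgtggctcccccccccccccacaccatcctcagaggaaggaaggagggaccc
The Cdkn2b window held TGACGTCA at 1 place, and 1.55% of the 32851 promoter windows of the table held it. The upstream Cdkn2a window held GGGCGG at 2 places and TTTCCCGC at 1 place, against 32.7% and 0.895% of all windows with at least 1 match. None of these motifs was in the downstream Cdkn2a window. CAGAC, a short Smad-binding sequence that is not capitalised, was in the Cdkn2b window and in neither Cdkn2a window, and 42.2% of all windows held it. A match describes these letters and does not show that a factor binds there.

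Library totals ran from 17591005 to 37894692 counts. The 2 libraries of each group differed by more than sampling noise (a chi-square of 4.83 to 89.7 for each degree of freedom), and each was kept as its own replicate. This excess cannot show whether they came from separate cultures, since technical spread alone can give it. The 4 libraries DMSO PD454 14, DMSO PD883 8, TGFb PD883 12 and TGFb PD454 18 were richer in short transcripts than the rest: the correlation across genes of a library's deviation with exon length was from -0.196 to -0.0942 in them and from -0.0504 to 0.135 in the other libraries. The epithelial keratins Krt8 and Krt18 led the summed ductal and epithelial markers in every treatment, and 8 of 8 markers were found. Their sum was 4864 to 7705 CPM (counts scaled to library size) in the DMSO libraries, 5328 to 9609 in those of ionomycin and 3993 to 7051 in those of TGFb, but Epcam stayed between 0.732 and 4.30 CPM throughout. The sum hides markers that moved apart: Krt19 ran from 485 to 1746 CPM with DMSO and from 4.12 to 60.7 with TGFb, and Cdh1, the E-cadherin gene, from 522 to 781 and from 19.0 to 129. Cldn4 went the other way, from at most 0.218 CPM with DMSO to 19.6 to 108 with TGFb, as did Sox9, from 5.80 to 49.7 up to 53.4 to 158. Fibroblast markers (6 of 6 found) summed to 1.97 to 5.82 CPM with DMSO, to 1.46 to 4.19 for ionomycin and to 5.86 to 86.5 for TGFb, with Col1a1 leading and Lum at no more than 4 counts. Immune markers (5 of 5 found) summed to 3.14 to 5.87, 8.37 to 29.3 and 2.54 to 3.64 CPM, with Cd68 leading and Ptprc at no more than 5 counts. Endothelial markers summed to at most 2.79 CPM, acinar markers to at most 6.18 CPM, acinar Cpa1 and Ptf1a and endocrine Ins1 and Ins2 were at 0 in all 18 libraries, and the part of other cells in the results was not tested. In bulk RNA, fewer cells of a type and less RNA per cell cannot be told apart.

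No inhibitor locus was without counts in any line: all 180 values of the 10 genes were above 0. Cdkn2a had at least 1270 counts and Cdkn2b at least 642 counts in every library, so reads of both loci were present in PD454, PD7591 and PD883. The lowest counts belonged to Cdkn1c, with 2 counts in ionomycin PD883 10 and in TGFb PD883 11. All 10 genes passed the filter on low counts. Levels between genes were divided by the union of all annotated exons, 8775 bases for Ccnd3 and 1172 for Cdkn2a. The transcripts expressed may be shorter, so the order of levels depends on these lengths. Before this division Ccnd3 (107 CPM) and Cdkn1a (104 CPM) were close with DMSO. Per kilobase of exon with DMSO, the order of levels ran from Ccnd1 at 259 ± 86.9 CPM per kb (SD of 3 line means) through Cdkn2a at 128 ± 34.5, Ccnd2 at 50.3 ± 9.25, Cdkn2b at 40.9 ± 3.80, Cdkn1b at 31.3 ± 6.81, Cdkn1a at 29.3 ± 17.3, Cdkn2c at 18.4 ± 5.98, Cdkn2d at 15.9 ± 1.25 and Ccnd3 at 12.2 ± 0.702 to Cdkn1c at 0.708 ± 0.672. Each neighbouring pair from Ccnd2 down to Cdkn2d lay within the summed SDs of its 2 genes, so these SDs do not order such neighbours. They leave out that both genes were read in the same libraries, and Cdkn2b was above Cdkn1b in every DMSO library. Ccnd2 and Cdkn2d, the ends of that run, lay further apart than their summed SDs.

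**Figure D1:**
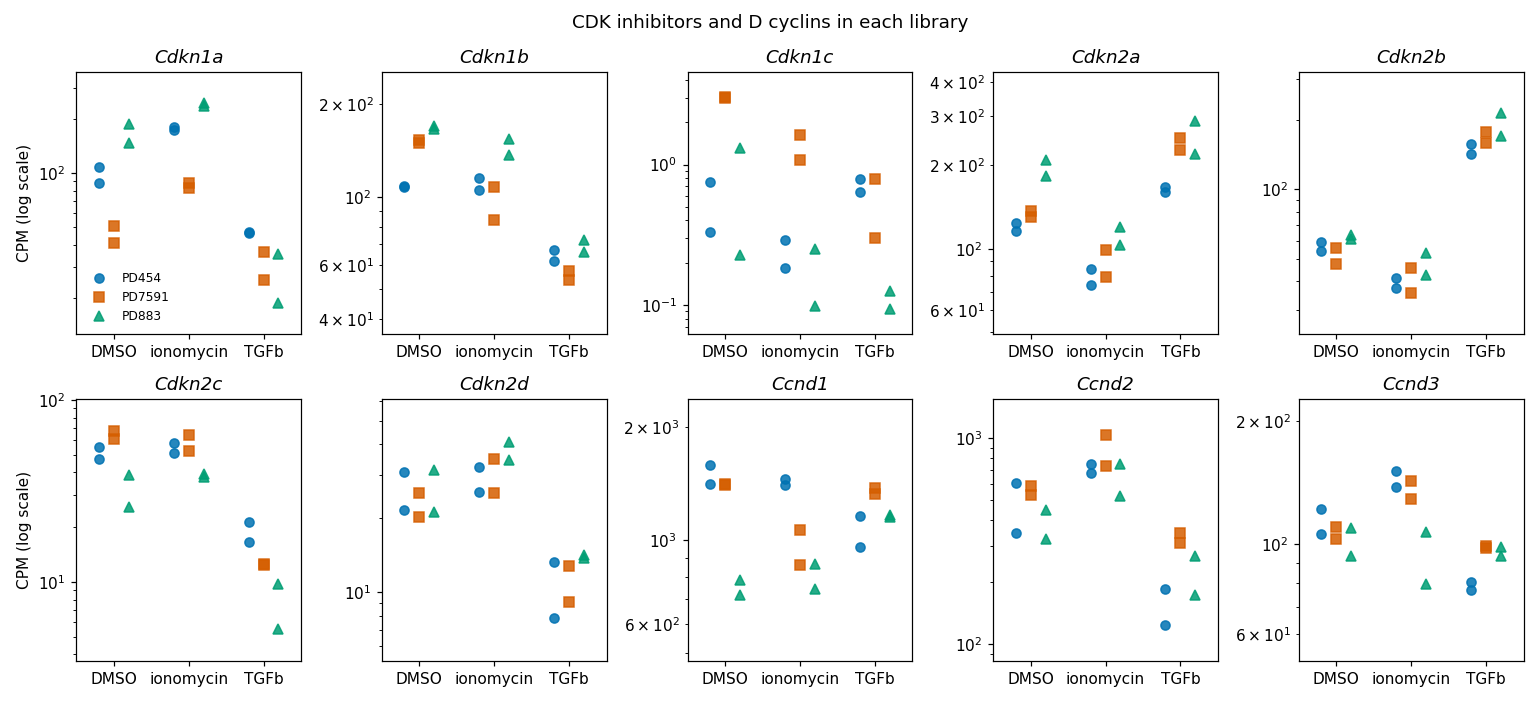
CPM (scaled with TMM factors, log axis) of the 10 genes in the 18 libraries, with each point a library, grouped by treatment and marked by line. With TGFb, all 6 libraries of Cdkn2b sat above the DMSO libraries (142 to 215 against 47.6 to 63.3 CPM) and all 6 of Cdkn2c below them (5.48 to 21.3 against 25.9 to 67.4 CPM).

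With TGFb, 2 of the 10 genes rose and 6 fell relative to DMSO (edgeR quasi-likelihood F test over all 13827 genes tested, lines as a term, Benjamini-Hochberg adjusted p under 0.05). Of all genes tested 50.7% were called in that comparison, 24.3% higher and 26.5% lower, and the median log2 fold change was -1.07 over the 10 genes against -0.00 over all genes. With ionomycin, 2 rose and 3 fell, where 33.3% of all genes were called, 17.2% higher and 16.1% lower, and the medians were -0.06 and -0.03. In the direct comparison of ionomycin with TGFb, 6 genes were higher with ionomycin and 2 lower, against 62.9% of all genes called (31% higher and 31.9% lower). The DMSO libraries are shared by the comparisons of the 2 agents with DMSO, so these are given side by side and not set against each other. Without overlap between 6 and 6 libraries were 4 of the 10 genes for TGFb against DMSO (Cdkn1b, Cdkn2b, Cdkn2c and Cdkn2d, with 17.6% of all genes), 0 for ionomycin against DMSO (7.23% of all genes) and 7 for ionomycin against TGFb (27% of all genes).

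**Figure D2:**
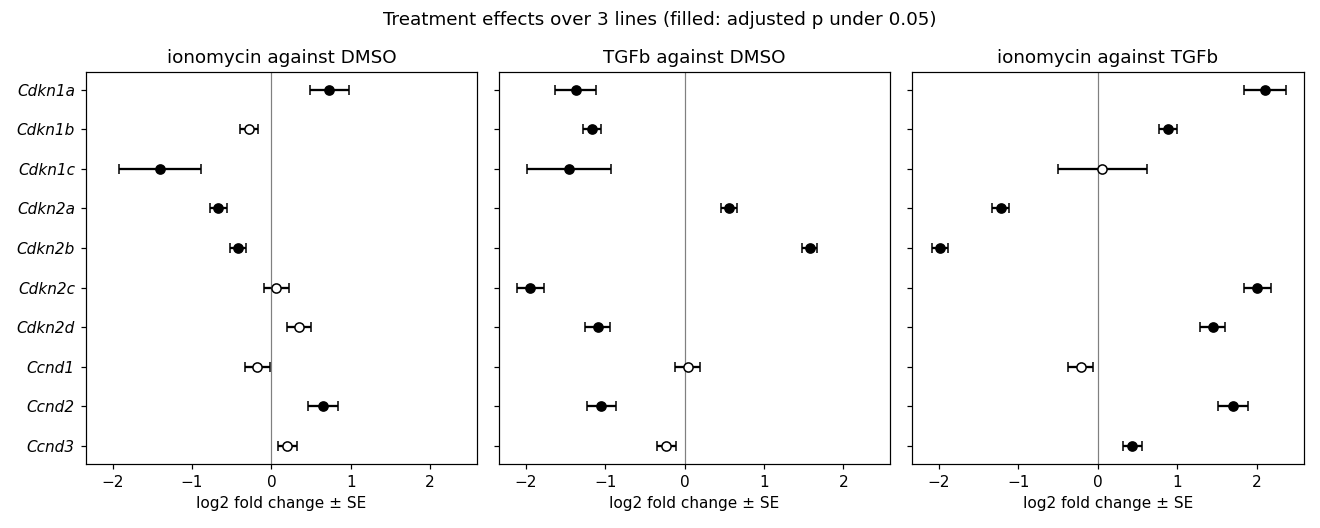
Log2 fold change (x axis, bars for the SE) of each of the 10 genes for ionomycin against DMSO, TGFb against DMSO and ionomycin against TGFb, from the fit with lines as a term, with filled points at an adjusted p under 0.05. The TGFb value was highest for Cdkn2b (1.57) and lowest for Cdkn2c (-1.95), and among filled ionomycin points Cdkn1a (0.73) and Ccnd2 (0.65) lay above 0.

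Cdkn2b, which encodes the CDK4 and CDK6 inhibitor p15, rose with TGFb by the largest factor of the 10 genes. With DMSO its libraries read 53.9 and 59.4 CPM in PD454, 47.6 and 55.8 in PD7591, and 63.3 and 61.2 in PD883. With TGFb they read 142 and 157 CPM in PD454, 159 and 177 in PD7591, and 215 and 170.0 in PD883, and with ionomycin 41.3 and 37.3 CPM in PD454, 35.5 and 45.8 in PD7591, and 53.3 and 42.7 in PD883. Every TGFb library was above every DMSO and every ionomycin library, and within each line both ionomycin libraries were below both DMSO libraries. TGFb against DMSO gave a log2 fold change of 1.57 ± 0.10 (SE; 2.98-fold higher, adjusted p = 2.66e-10), and the change was 1.40 in PD454, 1.70 in PD7591 and 1.63 in PD883. Ionomycin against DMSO gave -0.42 ± 0.10 (1.34-fold lower, adjusted p = 0.00287), a call that did not hold when the 2 libraries of each group were summed (adjusted p = 0.0524).

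Cdkn2a, the source of p16 and p19Arf, rose less with TGFb and fell with ionomycin. Its DMSO libraries read 124 and 116 CPM in PD454, 137 and 130.4 in PD7591, and 182 and 209 in PD883. With TGFb the values were 161 and 167 CPM in PD454, 227 and 250.2 in PD7591, and 289 and 220.4 in PD883, and with ionomycin 84.5 and 73.8 CPM in PD454, 79.4 and 99.1 in PD7591, and 119.9 and 103 in PD883. Within each line the TGFb libraries were above and the ionomycin libraries below the DMSO libraries, while across lines the DMSO values of PD883 reached those of TGFb in PD454. TGFb raised it by a log2 fold change of 0.56 ± 0.10 (1.47-fold, adjusted p = 0.000172), and with ionomycin the log2 fold change was -0.67 ± 0.10 (1.59-fold lower, adjusted p = 8.54e-05). Both calls held under all 32 alternatives run.

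Cdkn2c, at chr4:109660876-109667189, encodes the INK4 inhibitor p18 and had the lowest TGFb log2 fold change of the 10 genes over the 3 lines, though not within any single line. Its libraries read 47.6 and 55.4 CPM in PD454, 67.4 and 60.9 in PD7591, and 25.9 and 38.5 in PD883 with DMSO. They read 16.7 and 21.3 CPM in PD454, 12.3 and 12.6 in PD7591, and 5.48 and 9.69 in PD883 with TGFb and 50.9 and 58.2 CPM in PD454, 64.4 and 52.6 in PD7591, and 37.7 and 39.2 in PD883 with ionomycin. The 6 TGFb libraries lay below all others, and the ionomycin and DMSO libraries overlapped. The TGFb effect was -1.95 ± 0.17 on the log2 scale (3.85-fold lower, adjusted p = 2.48e-08), with -1.44, -2.36 and -2.07 in PD454, PD7591 and PD883. For ionomycin it was 0.06 ± 0.16 with a 95% interval of -0.26 to 0.38 (adjusted p = 0.792).

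Cdkn2d, at chr9:21288410-21291407, encodes the remaining INK4 inhibitor, p19Ink4d. Its libraries read 21.5 and 30.8 CPM in PD454, 20.3 and 25.3 in PD7591, and 21.2 and 31.4 in PD883 with DMSO. They read 7.81 and 13.2 CPM in PD454, 9.14 and 12.8 in PD7591, and 14.1 and 13.8 in PD883 with TGFb and 32.5 and 25.6 CPM in PD454, 25.4 and 35.0 in PD7591, and 40.8 and 34.4 in PD883 with ionomycin. The TGFb libraries lay below all DMSO and ionomycin libraries. TGFb lowered it by 2.14-fold (log2 fold change -1.10 ± 0.16, adjusted p = 1.12e-05). The ionomycin value was 0.35 ± 0.15 (adjusted p = 0.0845), and it was past the threshold without the 4 libraries rich in short transcripts (adjusted p = 0.0215), without DMSO PD454 14 (0.0274) or without TGFb PD454 17 (0.0444). With TGFb, therefore, 2 INK4 genes rose (Cdkn2a and Cdkn2b) and 2 fell (Cdkn2c and Cdkn2d).

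Cdkn1a, at chr17:29090976-29100727, encodes p21, a target of p53, and moved in opposite directions with the 2 agents. The DMSO libraries read 88.1 and 109 CPM in PD454, 41.0 and 50.5 in PD7591, and 189 and 147 in PD883. The ionomycin libraries read 174 and 182 CPM in PD454, 82.9 and 88.5 in PD7591, and 246 and 238 in PD883, and the TGFb libraries 46.3 and 47.0 CPM in PD454, 36.2 and 25.5 in PD7591, and 35.3 and 19.0 in PD883. In each of the 3 lines both ionomycin libraries were above and both TGFb libraries below the DMSO pair, but the lines started from different levels and the 6 DMSO libraries overlapped both other groups. TGFb against DMSO was -1.37 ± 0.26 on the log2 scale (2.59-fold lower, adjusted p = 0.000230). Ionomycin against DMSO was 0.73 ± 0.25 (1.66-fold higher, adjusted p = 0.0304), a call that 11 of 32 alternatives ended. These were the fits without PD454 (adjusted p = 0.176), without PD7591 (0.0989), without the line term (0.206) and without the count filter (0.0810), summed duplicates (0.234) and fits without DMSO PD454 13 (0.0684) or 14 (0.0571), DMSO PD7591 1 (0.0775) or 2 (0.0684), or ionomycin PD883 9 (0.0671) or 10 (0.0674). Within lines the ionomycin rise was called in PD454 (0.85 ± 0.24) and PD7591 (0.90 ± 0.24) but not in PD883 (0.52 ± 0.24, adjusted p = 0.135). The fall with TGFb depended on the line (edgeR quasi-likelihood test on 2 degrees of freedom, adjusted p = 0.00655): it was -2.64 ± 0.26 in PD883, -1.08 ± 0.24 in PD454 and -0.57 ± 0.24 in PD7591, where it missed the threshold (adjusted p = 0.0821). The PD7591 value was past the threshold without the count filter (adjusted p = 0.0154), without the 4 libraries rich in short transcripts (0.00856) and without TGFb PD883 11 (0.0327) or 12 (0.0289). The TGFb levels of the 3 lines lay closer together (34.9 ± 10.4 CPM, SD of 3 line means) than the DMSO levels (104 ± 61.5 CPM); the difference of these spreads was not tested.

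Cdkn1b, at chr6:134920401-134925513, encodes p27, whose protein is removed by the Skp2 ubiquitin ligase. Its DMSO libraries read 108 and 107 CPM in PD454, 150.2 and 153 in PD7591, and 170.1 and 166 in PD883. With TGFb they read 61.8 and 67.3 CPM in PD454, 57.2 and 53.6 in PD7591, and 72.4 and 66.2 in PD883, and with ionomycin 116 and 106 CPM in PD454, 107 and 84.2 in PD7591, and 154 and 137 in PD883. All 6 TGFb libraries lay below the other 12. The TGFb effect was -1.16 ± 0.11 (2.24-fold lower, adjusted p = 1.09e-07) and the ionomycin value was -0.28 ± 0.11 (adjusted p = 0.0595). The ionomycin value was past the threshold without the 4 libraries rich in short transcripts (adjusted p = 0.0408), without DMSO PD454 13 (0.0447) or 14 (0.0345), and in 3 other alternatives. Within PD7591 it was called lower (-0.66 ± 0.13, adjusted p = 0.00339), and it was not called in PD454 (0.04 ± 0.13) or PD883 (-0.21 ± 0.13). Dependence of this effect on the line was not called by edgeR (adjusted p = 0.105) but was by DESeq2 (0.0470).

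Cdkn1c, at chr7:143458339-143461050, encodes p57 and comes from an imprinted region. It was the lowest of the 10 genes in every treatment, with counts of 6 and 25 in PD454, 56 and 70 in PD7591, and 23 and 5 in PD883 for DMSO. Counts were 4 and 5 in PD454, 23 and 30 in PD7591, and 5 and 2 in PD883 for ionomycin and 12 and 17 in PD454, 15 and 6 in PD7591, and 2 and 5 in PD883 for TGFb. Its DMSO level was highest in both PD7591 libraries, and the 2 PD883 libraries with DMSO held 23 and 5 counts. The fit called it lower with TGFb (-1.45 ± 0.53, adjusted p = 0.0285) and with ionomycin (-1.40 ± 0.51, adjusted p = 0.0431), but 11 and 14 of 32 alternatives ended these calls. The libraries that ended the TGFb call when left out were DMSO PD7591 1, DMSO PD7591 2, DMSO PD883 7, TGFb PD7591 5, TGFb PD7591 6, TGFb PD883 11 and TGFb PD883 12, and for the ionomycin call they were DMSO PD7591 1, DMSO PD7591 2, DMSO PD883 7, ionomycin PD454 15, ionomycin PD454 16, ionomycin PD7591 3, ionomycin PD883 10, ionomycin PD883 9 and TGFb PD7591 5. Without DMSO PD883 7, for example, the TGFb and ionomycin values were -1.02 (adjusted p = 0.0895) and -0.999 (0.107). Within lines the TGFb value was -2.47 ± 0.63 in PD7591 and -2.65 ± 0.81 in PD883. In PD454 it was 0.32 ± 0.66 and not called, so that line showed no fall. Dependence of the TGFb effect on the line was not called by edgeR (adjusted p = 0.126). Exons of Cdkn1c and Cdkn1a overlap genes on the opposite strand by 625 and 273 bases, and the strand setting of the counting is not given, so reads of these overlaps cannot be assigned with certainty.

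Among the D cyclins, Ccnd2 moved with both agents in opposite directions. Ccnd2, at chr6:127125162-127152193, read 604 and 345 CPM in PD454, 532 and 588 in PD7591, and 449 and 323 in PD883 with DMSO. It read 676 and 747 CPM in PD454, 1032 and 734 in PD7591, and 523 and 751 in PD883 with ionomycin and 186 and 124 CPM in PD454, 311 and 348 in PD7591, and 269 and 172 in PD883 with TGFb. In each line the 2 ionomycin libraries were above and the 2 TGFb libraries below the DMSO pair, and no TGFb library reached an ionomycin library. TGFb lowered it by 2.07-fold (-1.05 ± 0.19 on the log2 scale, adjusted p = 0.000131). Ionomycin raised it by 1.57-fold (0.65 ± 0.19, adjusted p = 0.0114), a call that was lost without the line term (adjusted p = 0.0695) and without PD7591 (0.0709). No single line was called for ionomycin (adjusted p = 0.174 in PD454, 0.149 in PD7591 and 0.0995 in PD883). The 4 libraries rich in short transcripts, DMSO PD454 14, DMSO PD883 8, TGFb PD454 18 and TGFb PD883 12, each held the lower Ccnd2 value of their pairs. Both Ccnd2 calls against DMSO held without these 4 libraries. Exons of Ccnd2 overlap 9330179D12Rik and Gm43126 on the opposite strand by 368 and 372 bases.

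Ccnd1, at chr7:144929931-144939925, had the highest mean level per kilobase of the 10 genes in every treatment and did not pass the test over the 3 lines. It read 1586 and 1409.6 CPM in PD454, 1401 and 1417 in PD7591, and 784 and 714 in PD883 with DMSO. It read 1455 and 1404 CPM in PD454, 1067 and 858 in PD7591, and 741 and 863 in PD883 with ionomycin and 1163 and 960.0 CPM in PD454, 1326 and 1377 in PD7591, and 1154 and 1167 in PD883 with TGFb. With TGFb its level lay within the summed SDs of that of Cdkn2a (253 ± 31.3 and 187 ± 41.5 CPM per kb, SD of 3 line means), and in PD883 with DMSO Cdkn2a was above it (167 against 159). In PD883 both TGFb libraries were above both DMSO libraries. In PD454 and PD7591 both were below, though in PD7591 the 2 ranges were close. Over the lines TGFb against DMSO was 0.04 ± 0.16 (95% interval -0.27 to 0.35, adjusted p = 0.854) and ionomycin against DMSO -0.18 ± 0.16 (-0.48 to 0.13, adjusted p = 0.408). Within PD7591 ionomycin was called lower (-0.55 ± 0.15, adjusted p = 0.0218), and it was not called in PD454 (-0.07 ± 0.15) or PD883 (0.10 ± 0.15). Dependence of the ionomycin effect on the line was not called (adjusted p = 0.17). Members called with ionomycin in PD7591 numbered 1 to 4 on leaving out 1 library at a time. The TGFb effect depended on the line (adjusted p = 0.0164): it was 0.63 ± 0.15 in PD883, -0.50 ± 0.15 in PD454 and -0.06 ± 0.15 in PD7591. That dependence was past the threshold by a small margin and was lost on leaving out any of DMSO PD454 13, DMSO PD7591 2, DMSO PD883 8, TGFb PD454 18, TGFb PD7591 5 or 6 and TGFb PD883 12 (adjusted p from 0.0502 to 0.0586), as well as without the 4 libraries rich in short transcripts (0.0663). Exons of Ccnd1 overlap LTO1 (listed as Oraov1 in the count table) by 1100 bases on the opposite strand.

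Ccnd3, at chr17:47505051-47599691, read 122 and 106 CPM in PD454, 109.9 and 103 in PD7591, and 93.5 and 109.5 in PD883 with DMSO. It read 137 and 151 CPM in PD454, 142 and 129 in PD7591, and 79.6 and 107 in PD883 with ionomycin and 80.7 and 77.3 CPM in PD454, 97.8 and 98.5 in PD7591, and 98.3 and 93.2 in PD883 with TGFb. The values of PD454 and PD7591 were ordered ionomycin, DMSO, TGFb from high to low, and those of PD883 overlapped. Neither agent against DMSO passed the test (TGFb -0.23 ± 0.12, adjusted p = 0.124, ionomycin 0.20 ± 0.12, adjusted p = 0.209). The TGFb value was past the threshold with a mean per group in the fit (adjusted p = 0.0276), with the libraries of the 2 treatments alone (0.0471) and without PD883 (0.0411), and the ionomycin value without PD883 (0.0275) or ionomycin PD883 9 (0.0347). Within PD454 alone, TGFb lowered it (-0.53 ± 0.15, adjusted p = 0.0150), a call lost without DMSO PD454 13 (0.152) or TGFb PD454 17 (0.0630) or 18 (0.113). Ionomycin against TGFb passed the test (0.43 ± 0.12, adjusted p = 0.00500), but not without PD454 (adjusted p = 0.157) or without PD7591 (0.0579). Its exons overlap Bysl on the opposite strand by 361 bases.

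**Figure D3:**
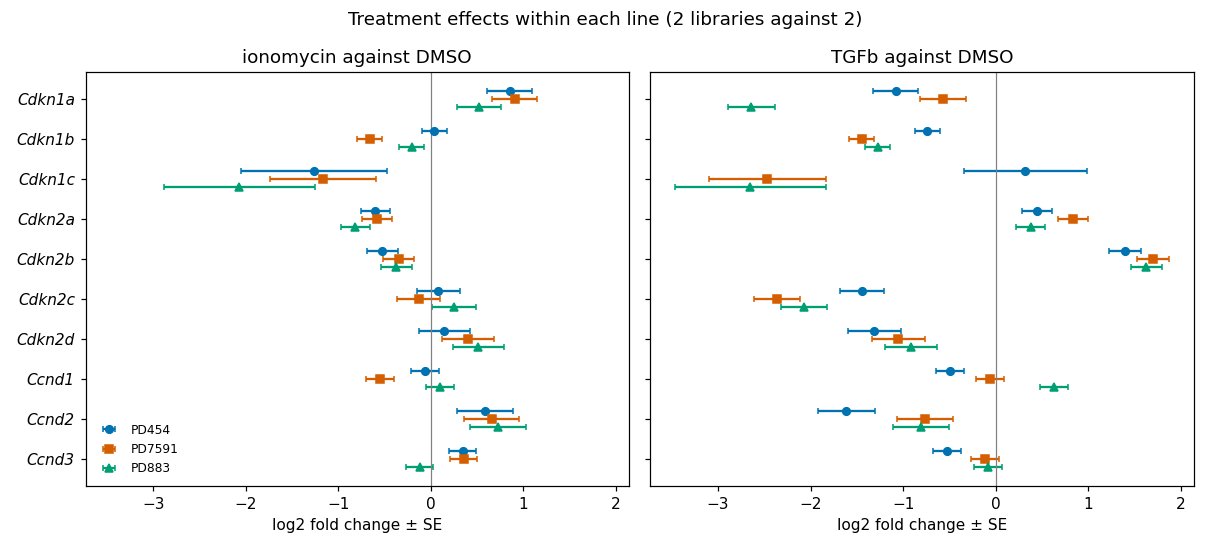
Log2 fold changes of the 10 genes within each line, for ionomycin against DMSO and TGFb against DMSO, with 1 point per line and bars for the SE. For TGFb the 3 lines lay together for Cdkn2b (1.40 to 1.70) and apart for Cdkn1a (-2.64 in PD883, -0.57 in PD7591) and Ccnd1 (0.63 in PD883, -0.50 in PD454).

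Set against each other directly, the 2 agents differed for 8 of the 10 genes. Cdkn2c (2.01 ± 0.17), Cdkn1a (2.10 ± 0.26), Ccnd2 (1.70 ± 0.19), Cdkn2d (1.45 ± 0.16) and Cdkn1b (0.88 ± 0.11) were higher with ionomycin than with TGFb, with adjusted p values from 1.13e-08 to 2.40e-06, besides Ccnd3 above. Cdkn2b (-1.99 ± 0.10, adjusted p = 1.03e-11) and Cdkn2a (-1.22 ± 0.10, adjusted p = 1.02e-08) were lower with ionomycin. In these 7 genes no ionomycin library overlapped a TGFb library. Ccnd1 (-0.21 ± 0.16, adjusted p = 0.246) and Cdkn1c (0.05 ± 0.56, adjusted p = 0.939) were not called, but Ccnd1 was lower with ionomycin without PD454 (-0.50, adjusted p = 0.0123).

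Per kilobase of exon, the makeup of the 3 families moved with the treatments, given here as a description with no test. The shares depend on the same lengths of all annotated exons. Cdkn2a and Cdkn2b together led the INK4 family. Cdkn2b made up 20.4% ± 2.12 of it with DMSO (SD of 3 line means), 20.5% ± 0.554 with ionomycin and 38.3% ± 2.67 with TGFb. Cdkn2c went from 9.42% ± 3.98 with DMSO to 12.97% ± 3.79 with ionomycin and 1.63% ± 0.970 with TGFb. Ccnd1 made up 79.8% ± 4.24 of the D cyclins with DMSO, 70.2% ± 5.87 with ionomycin and 87.9% ± 1.88 with TGFb, and Ccnd2 16.1% ± 3.12, 25.3% ± 5.52 and 8.44% ± 2.00. In the CIP/KIP family Cdkn1b and Cdkn1a made up 53.2% ± 14.5 and 45.4% ± 16.01 with DMSO, where Cdkn1a was the larger in PD454 and PD883 and Cdkn1b in PD7591. Cdkn1b had the larger share in each line with TGFb (58.8% ± 8.01) and Cdkn1a in each line with ionomycin (62.7% ± 8.58). The summed INK4 level ran from 176 to 257 CPM per kb with DMSO, through 128 to 181 for ionomycin, to 251 to 412 for TGFb, and the summed CIP/KIP level from 46.0 to 91.3, 44.2 to 103 and 19.1 to 28.4. The sums of the D cyclins overlapped between all treatments (198 to 415, 222 to 396 and 226 to 341 CPM per kb).

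**Figure D4:**
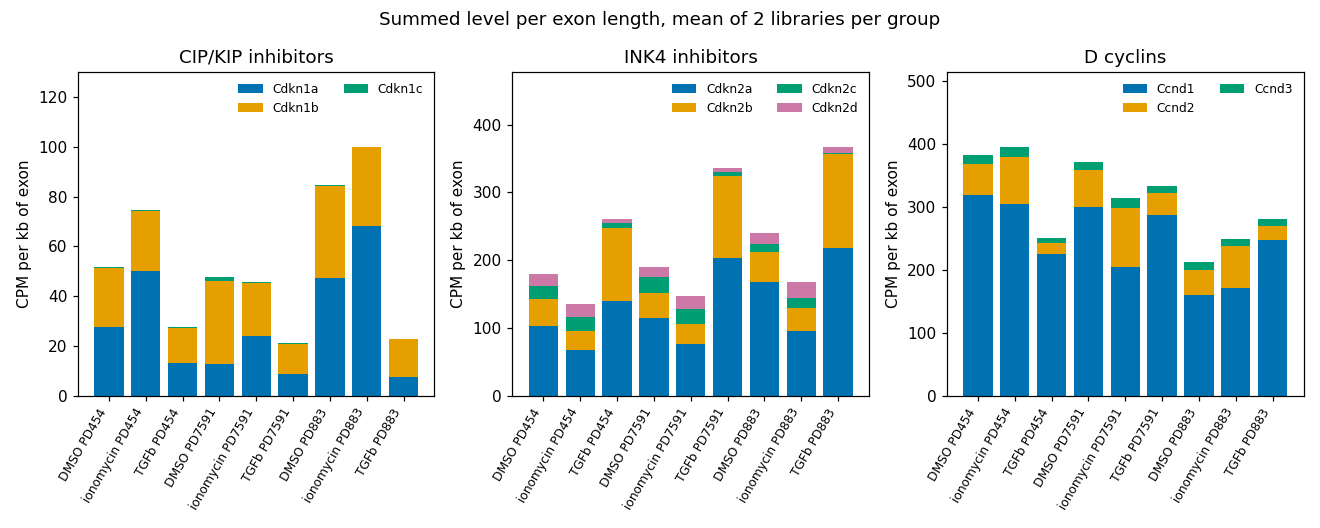
Stacked bars of CPM per kb of exon (mean of 2 libraries, linear axis from 0) for the genes of each family in the 9 groups of line and treatment. In every line the INK4 bar was highest and the CIP/KIP bar lowest with TGFb, and Ccnd1 filled most of each D cyclin bar.

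The lines differed before treatment. With DMSO, 3 of the 10 genes were called between PD454 and PD7591 (21.5% of all genes), 5 between PD454 and PD883 (35.3%) and 5 between PD7591 and PD883 (34%). Ccnd1 was lower in PD883 than in PD454 (log2 fold change 1.00 ± 0.15 for PD454 against PD883, adjusted p = 0.000273) and than in PD7591 (0.91 ± 0.15 for PD7591 against PD883, adjusted p = 0.000524). Cdkn1a was lower in PD7591 than in PD883 (-1.88 ± 0.25, adjusted p = 7.60e-05), Cdkn2a lower in PD454 than in PD883 (-0.71 ± 0.16, adjusted p = 0.00388) and Cdkn1b lower in PD454 than in PD883 (-0.64 ± 0.13, adjusted p = 0.00239). These 5 calls held on leaving out each library. The counts did not: without DMSO PD7591 1 or 2 the first fell to 1, without DMSO PD454 13 or DMSO PD883 7 the second fell to 3, and the third fell to 2 without DMSO PD7591 1 and to 3 without DMSO PD7591 2 or DMSO PD883 8.

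Within single lines, TGFb against DMSO called 9 of the 10 genes in PD454 (31% of all genes), 6 in PD7591 (37.8%) and 8 in PD883 (38.4%). Ionomycin against DMSO called 3 in PD454 (21% of all genes), 4 in PD7591 (18.6%) and 1 in PD883 (22.5%). Ionomycin against TGFb called 9 in PD454 (44.9%), 9 in PD7591 (44.6%) and 8 in PD883 (49.4%). The counts of ionomycin against DMSO rested on single libraries: in PD454 they fell to 0 without DMSO PD454 14 or either ionomycin library (15, 16) and to 1 without DMSO PD454 13, in PD7591 to 1 without DMSO PD7591 1 or 2 or ionomycin PD7591 4 and to 2 without ionomycin PD7591 3, and in PD883 the count became 2 without DMSO PD883 8 or TGFb PD883 11 or 12. Dependence of the ionomycin effect on the line was called for 0 of the 10 genes by edgeR (2.59% of all genes), with 2 at an unadjusted p under 0.05, 1 by DESeq2 and 0 by limma-voom. For TGFb it was called for 2 genes, Cdkn1a and Ccnd1, against 5.26% of all genes, with 5 at an unadjusted p under 0.05, 2 by limma-voom and 3 by DESeq2, which added Cdkn1b (adjusted p = 0.000389). It was called for ionomycin against TGFb for 3 genes, Cdkn1a, Ccnd1 and Ccnd3, against 8.4% of all genes, with 4 at an unadjusted p under 0.05 and 3 each by DESeq2 and limma-voom.

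The genes around Cdkn2a were measured in all lines too, and distances are given from the Cdkn2a start to their starts. Mtap, a methionine salvage gene 158 kb away that is often lost with Cdkn2a in tumours, was higher with TGFb (0.41 ± 0.10, adjusted p = 0.00191), but not without the line term (adjusted p = 0.0656) or without PD7591 (0.0779). Focad, 1200 kb away, was lower with TGFb (-0.91 ± 0.15, adjusted p = 4.45e-05). Exons of Focad overlap those of Hacd4 on the opposite strand by 746 bases. Of the 8 neighbour names listed, 6 were in the table and 5 were tested, of which 1 rose and 1 fell with TGFb and 0 rose and 1 fell with ionomycin. Among all genes, 24.3% were called higher and 26.5% lower with TGFb, and 17.2% and 16.1% with ionomycin. With so few neighbours tested, these counts do not set them apart from other genes. The other 3 neighbours tested were not called with TGFb, and none of the neighbours tested reached the TGFb log2 fold change of Cdkn2b. The counts of neighbours rested on 1 gene each: the ionomycin fall belonged to Mtap and was lost without any of 14 libraries taken singly (adjusted p up to 0.377 over all alternatives), and the count lower with TGFb became 2 without DMSO PD454 14 or TGFb PD454 17.

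**Figure D5:**
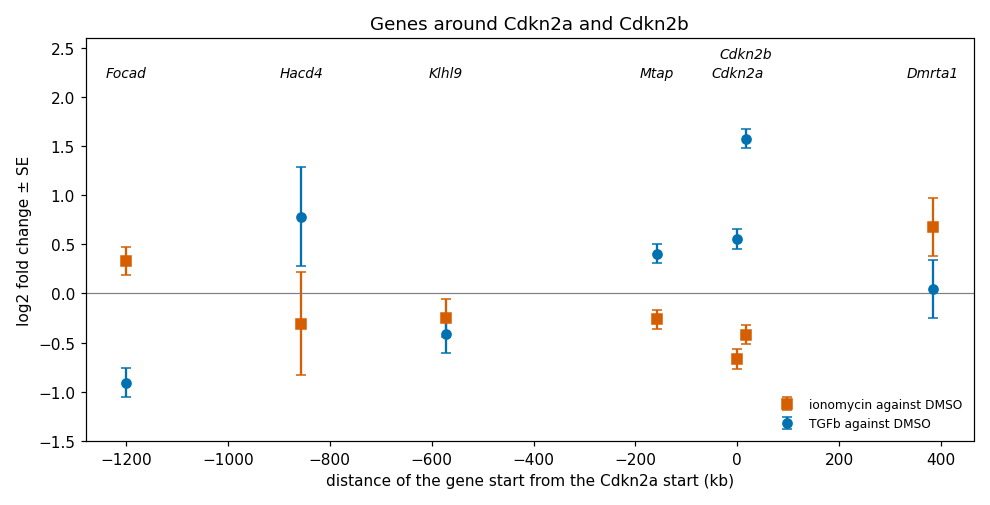
Log2 fold change (y axis, bars for the SE) of Cdkn2a, Cdkn2b and the tested neighbours against the distance of their starts from the Cdkn2a start in kb, for TGFb and ionomycin against DMSO. With TGFb, Cdkn2b (1.57) stood above Cdkn2a (0.56) and Mtap (0.41), and Focad was at -0.91. Hacd4, 856 kb away, was at 0.78 with a wide SE (0.51) and was not called.

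The partners of the inhibitors were read from lists of genes, against 24.3% of all genes called higher and 26.5% called lower with TGFb and 17.2% and 16.1% with ionomycin. Of 4 CDK genes, TGFb raised 1 and lowered 1 (list median -0.13 against -0.00 for all genes): Cdk4 was 0.48 ± 0.11 (adjusted p = 0.00109) and Cdk6 -0.98 ± 0.20 (adjusted p = 0.000490, or 0.208 without the line term). Ionomycin lowered 1 of the 4, Cdk4 (-0.50 ± 0.11, adjusted p = 0.00189). Of 5 cyclins of later phases, TGFb lowered 4 and raised 0 (median -1.02), among them Ccna2, an S phase cyclin (-1.26 ± 0.17, adjusted p = 4.68e-06), and Ccnb2, a mitotic cyclin (-1.02 ± 0.15, adjusted p = 1.74e-05), and ionomycin lowered 2 and raised 0 (median -0.47). The ionomycin count of lowered cyclins fell to 0 without DMSO PD454 14, DMSO PD883 8 or ionomycin PD454 15, and to 1 without 9 other libraries taken singly. Of 13 pocket protein, E2F and E2F partner genes, TGFb raised 2 and lowered 6 (median -0.39), led by E2f2 (-2.10 ± 0.21, adjusted p = 1.46e-07), and ionomycin raised 1 and lowered 2 (median -0.07). The TGFb count of lowered genes fell to 3 without DMSO PD7591 1, DMSO PD7591 2 or TGFb PD454 18, and that of ionomycin to 0 without DMSO PD454 13, DMSO PD7591 1, DMSO PD883 8 or ionomycin PD7591 3 or 4 and to 1 without 4 others. Of 14 E2F target genes of S phase, TGFb lowered 4, a share near that of all genes, and raised 0 (median -0.30), with Rrm2, a subunit of ribonucleotide reductase, at -1.63 ± 0.16 (adjusted p = 1.24e-07) and Tk1, thymidine kinase, at -0.73 ± 0.17 (adjusted p = 0.00185). Ionomycin lowered 6 of the 14 and raised 0 (median -0.47), with Tyms, thymidylate synthase, at -0.89 ± 0.20 (adjusted p = 0.00266). Without DMSO PD883 7 the counts of lowered E2F targets rose to 8 for TGFb and 11 for ionomycin, and that of CDKs lowered by TGFb to 2.

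Of 19 regulators of the inhibitors TGFb raised 5 and lowered 5, and ionomycin raised 3 and lowered 3 (medians -0.02 and -0.17), shares near those of all genes. The TGFb count of raised genes was 3 without DMSO PD883 8 and 2 without TGFb PD7591 5 or 6. Id1 and Id2, which hold back helix-loop-helix activators of Cdkn2a and Cdkn1a, fell with TGFb by 1.80 ± 0.10 (adjusted p = 3.40e-11) and by 1.92 ± 0.17 (adjusted p = 2.42e-08) on the log2 scale. Cbx7, a Polycomb protein known to repress Cdkn2a, was -1.33 ± 0.11 with TGFb (adjusted p = 1.52e-08). Ets2 (-0.82 ± 0.12, adjusted p = 2.47e-05) and Foxo3 (-0.75 ± 0.29, adjusted p = 0.0404) were lower too. The 5 raised genes were Ets1 (0.51), Cks1b (0.46), Myc (0.40), Zbtb17 (0.31) and Smad2 (0.23), with adjusted p from 0.00797 to 0.0370. The Myc call with TGFb ended in 7 of 32 alternatives. Bmi1 (-0.19), Ezh2 (-0.01) and Id3 (-0.26) were not called with TGFb. With ionomycin Id2 was -0.98 ± 0.16 (adjusted p = 0.000179), Skp2 -1.04 ± 0.18 (adjusted p = 0.000226) and Myc 0.65 ± 0.14 (adjusted p = 0.00184, or 0.0597 with duplicates summed).

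Because Cdkn1a is a p53 target, 13 other p53 targets were read beside it. Ionomycin raised 5 of them and lowered 1, or 2 without ionomycin PD7591 4 (median 0.31), against 17.2% of all genes higher and 16.1% lower. Among those raised were Gdf15, a stress-induced cytokine, at 2.48 ± 0.25 (adjusted p = 9.58e-07) and Sesn2, a stress-induced mTORC1 inhibitor, at 1.16 ± 0.15 (adjusted p = 1.86e-05). The 1 lowered was Sesn1 (-0.72 ± 0.16, adjusted p = 0.00232). TGFb raised 2 and lowered 5 (median -0.12), against 24.3% of all genes higher and 26.5% lower. Trp53inp1 (-1.83 ± 0.22, adjusted p = 1.89e-06) and Ccng1 (-0.59 ± 0.09, adjusted p = 1.99e-05) were lower, and Plk2 (1.54 ± 0.28, adjusted p = 0.000165) and Phlda3 (0.75 ± 0.13, adjusted p = 9.11e-05) higher. Trp53 itself was low, at 1.48 to 4.11 CPM (28 to 138 counts) over the 18 libraries and in each of the 3 lines. Smad4, the shared mediator of TGFb signalling that pancreatic tumours often lose, read 125 to 206 CPM over the 18 libraries.

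The genes whose log2 CPM followed each member most closely over the 18 libraries are given as a description, since the libraries share treatments and lines. Cdkn2b was followed by Prmt2 and Mpzl1 (Pearson r 0.977 each), Cdkn2a by Armc10 (0.953) and Fzd2 (0.941), Cdkn2c by Tspan15 and Crb3 (0.967 each), and Cdkn2d by Shpk and Mtg1 (0.949 each). Cdkn1a was followed by Bco1 (0.965) and Sqrdl (0.964), Cdkn1b by Tmem176a (0.958) and Acbd5 (0.955), and Cdkn1c by Auts2 (0.935) and Dgcr2 (0.842). Ccnd2 was followed by Ablim1 (0.963) and Shroom2 (0.959), Ccnd3 by Phka1 (0.888) and Arf2 (0.876), and Ccnd1 by Casp8ap2 (0.873) and Zfp597 (0.863). Among the members themselves, r was -0.934 between Cdkn2b and Cdkn2c, 0.867 between Cdkn2a and Cdkn2b, and -0.855 between Cdkn2b and Ccnd2.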

How the data were processed

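RNA was sequenced in 18 libraries of 3 mouse pancreatic tumour lines. The authors deposited raw read counts per gene symbol with no scaling between libraries. CASAVA, Trimmomatic 0.32, STAR, featureCounts and the build mm10 are named per the submitters' processing notes; which settings, gene annotation and strand option were used is not stated.

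Counts were analysed in R 4.3.3. The filter filterByExpr over the 9 groups kept 13827 of 24527 entries and TMM factors scaled the libraries. A robust quasi-likelihood F test (edgeR 4.0.16) compared treatments over all 18 libraries with the line as an additive term. A fit with a mean per group gave effects within lines, the test that an effect is equal in the 3 lines, and the differences between lines with DMSO. Adjusted p-values are Benjamini-Hochberg over all genes tested, called under 0.05. Log2 CPM used a prior count of 2. CPM are on TMM-scaled library sizes, and levels between genes are per kb of the union of GENCODE M21 exons. Promoter windows come from RefSeq (GRCm38.p6). Windows were found for 7 of the 10 genes, and none is given for Ccnd1, Ccnd2 and Cdkn1c.

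Depth was 17591005 to 37894692 counts per library; duplicated reads could not be told apart, so depth bounds the counting error only. Alternatives were other scalings, no filter, DESeq2 1.42.0, limma-voom (limma 3.58.1), no line term, summed duplicates, no Rn45s (0.256% to 4.11% of counts), the libraries of 2 treatments alone, and leaving out each library, each line or 4 libraries rich in short transcripts. The members and lists were chosen with earlier results of these data known. All 10 members are named, then, of each list and treatment, called genes with the smallest p in each direction (at most 2), any gene of the CDK, pocket protein, regulator and neighbour lists, and the 2 genes most like each member. The text names only some of those the rule allows.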

Additional observations from a re-analysis of the deposited data

Results flagged for a closer look

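The effect of TGFb against DMSO differed between the 3 lines for Cdkn1a (edgeR quasi-likelihood test of equal effects, 2 degrees of freedom, adjusted p = 0.00655) and for Ccnd1 (adjusted p = 0.0164). For ionomycin against TGFb the lines differed for Cdkn1a (adjusted p = 0.0155), Ccnd1 (adjusted p = 0.0156) and Ccnd3 (adjusted p = 0.0380). For Cdkn1a the ionomycin against TGFb log2 fold change was 1.93 ± 0.25 in PD454, 1.47 ± 0.25 in PD7591 and 3.16 ± 0.26 in PD883, and both line differences held on leaving out each library. For Ccnd1 it was 0.43 ± 0.15, -0.49 ± 0.15 and -0.53 ± 0.15, and the line difference was lost without ionomycin PD454 15 (adjusted p = 0.0672) or 16 (0.0555), TGFb PD454 18 (0.0796) or TGFb PD7591 6 (0.0512). For Ccnd3 it was 0.87 ± 0.15, 0.47 ± 0.15 and -0.04 ± 0.15, and the line difference was lost on leaving out any of 15 of the 18 libraries in turn (adjusted p from 0.0513 to 0.147).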

How the results depend on the processing

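Over single genes, 3192 alternative values were computed, of which 3005 kept their direction and their side of the threshold, 143 lost a call, 24 gained one and 20 reversed. The causes of these changes were not tested. The TGFb calls of Cdkn1a, Cdkn1b, Cdkn2a, Cdkn2b, Cdkn2c, Cdkn2d and Ccnd2 and the ionomycin call of Cdkn2a held in all 32 alternatives. With ionomycin, the count of members called higher (2) became 1 with duplicates summed, without the count filter or without PD454, and 0 without the line term or without PD7591; the count called lower (3) became 1 with duplicates summed. The ionomycin count in PD883 (1) became 3 without the filter and 4 without the 4 short-transcript libraries, an alternative that was added after seeing the data for results within lines. Line dependence of the ionomycin effect (0) became 1 with DESeq2, and that of TGFb (2) became 1 without those 4 libraries. On leaving out 1 library at a time, members higher and lower were 1 to 3 and 2 to 4 for ionomycin, 2 to 2 and 5 to 6 for TGFb, and 6 to 6 and 2 to 2 for ionomycin against TGFb. Within PD454, PD7591 and PD883 the calls were 0 to 3, 1 to 4 and 1 to 2 for ionomycin, 6 to 9, 5 to 7 and 6 to 8 for TGFb, and 8 to 9, 7 to 9 and 7 to 8 for ionomycin against TGFb. Line dependence was 0 to 0, 1 to 2 and 1 to 3, and line pairs were 1 to 3 (PD454 and PD7591), 3 to 5 (PD454 and PD883) and 2 to 5 (PD7591 and PD883). CDKs lower with TGFb (1) became 0 without the line term. E2F targets higher with ionomycin (0) became 1 with DESeq2, without the count filter, without the 4 short-transcript libraries or without PD7591. E2F targets higher with TGFb (0) became 1 without PD454. E2F targets lower with ionomycin (6) became 2 without PD454 or without PD7591 and 3 without the line term and 12 without PD883. E2F targets lower with TGFb (4) became 2 without the line term or without PD454 and 10 without PD883. Neighbours of Cdkn2a higher with ionomycin (0) became 1 with a mean per group and 2 with the libraries of 2 treatments alone. Neighbours of Cdkn2a higher with TGFb (1) became 0 without the line term or without PD7591. Neighbours of Cdkn2a lower with ionomycin (1) became 0 with duplicates summed, without the line term, without the count filter, without the 4 short-transcript libraries, without PD454, without PD7591 or without PD883 and 2 with a mean per group. Neighbours of Cdkn2a lower with TGFb (1) became 2 without PD454. Other cyclins higher with TGFb (0) became 1 without PD454. Other cyclins lower with ionomycin (2) became 0 with duplicates summed, without the line term, without the 4 short-transcript libraries, without PD454 or without PD7591 and 1 without the count filter and 5 without PD883. Other p53 targets higher with ionomycin (5) became 3 without PD454. Other p53 targets lower with ionomycin (1) became 0 without PD7591 and 2 with a mean per group or on library totals. Other p53 targets lower with TGFb (5) became 3 without PD883. Pocket protein and E2F genes higher with ionomycin (1) became 0 with duplicates summed, without the 4 short-transcript libraries, without PD454 or without PD883. Pocket protein and E2F genes higher with TGFb (2) became 0 with duplicates summed, without the line term or without PD883 and 1 without PD7591. Pocket protein and E2F genes lower with ionomycin (2) became 0 with duplicates summed, without the line term, without the 4 short-transcript libraries or without PD7591 and 1 without the count filter or without PD454. Pocket protein and E2F genes lower with TGFb (6) became 1 without PD7591 and 3 with duplicates summed or without PD454. Regulators higher with ionomycin (3) became 0 with duplicates summed and 1 on library totals or without PD454. Regulators higher with TGFb (5) became 1 with duplicates summed, without the line term or without PD7591 and 3 without the 4 short-transcript libraries, without PD454 or without PD883. Regulators lower with ionomycin (3) became 5 with a mean per group or without PD883 and 6 on library totals. On leaving out 1 library at a time these list counts ran 1 to 2 for CDKs lower with TGFb (1), 0 to 1 for E2F targets higher with ionomycin (0), 0 to 1 for E2F targets higher with TGFb (0), 5 to 11 for E2F targets lower with ionomycin (6), 3 to 8 for E2F targets lower with TGFb (4), 0 to 1 for neighbours of Cdkn2a higher with ionomycin (0), 0 to 1 for neighbours of Cdkn2a lower with ionomycin (1), 1 to 2 for neighbours of Cdkn2a lower with TGFb (1), 0 to 1 for other cyclins higher with TGFb (0), 0 to 3 for other cyclins lower with ionomycin (2), 1 to 2 for other p53 targets lower with ionomycin (1), 0 to 3 for pocket protein and E2F genes lower with ionomycin (2), 3 to 7 for pocket protein and E2F genes lower with TGFb (6) and 2 to 5 for regulators higher with TGFb (5). Near-zero values that reversed, all on the log2 scale, were Ccnd1 with ionomycin without PD7591 (0.0253), Ccnd1 with TGFb without the line term (-0.0328) or without PD883 (-0.25), Cdkn2c with ionomycin on library totals or without PD883 (-0.0228 and -0.0252), and Cdkn1c for ionomycin against TGFb on library totals (-0.0116), without PD7591 (-0.80) or without PD883 (-0.0490). On leaving out 1 library, reversals lay within -0.0222 to 0.175 for Ccnd1 with TGFb, -0.0455 to 0.00760 for the same in PD7591, -0.32 to 0.39 for Cdkn1c and -0.25 to 0.19 for Ccnd3 in PD883, both for ionomycin against TGFb. Single libraries could not be paired between treatments because the groups share no library numbers. The line, which all 3 treatments share, was a term of the fit over the lines, so treatments were compared within lines there.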
